A study of Mus musculus with 6 samples.

Results

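Isolated state 1 segments were short stretches of chromatin state 1 that stood alone in a map of the mouse genome labelled as wild-type hematopoietic stem cells (HSCs). A segment was taken when it lay on chromosomes 1 to 19, was shorter than 3 kb and had no other state 1 segment within 12500 bp on either side. Members were thus chosen by the state numbers of the map itself. The rule took 5297 of the 10409 autosomal state 1 segments (50.9%), among 825324 autosomal segments of all 18 states. They covered 3.09 Mb of the 7.00 Mb of state 1, or 0.126% of autosomal bases.

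The series profiled histone variant H3.3 by ChIP-seq in HSCs from bone marrow of adult C57BL/6 mice, with 2 HIRA KO H3.3 libraries and 1 HIRA KO input set against 2 WT H3.3 libraries and 1 WT input. Mice of both genotypes had received poly(I:C), an interferon inducer that switches on the conditional Hira deletion, as 2 doses of 20 ug, and HSCs were collected 7 days after the first of these. The Cre line that drives the deletion is not given in the sources used here. The values analysed were 1 map with a state number for each bin of 200 bp on mm10, tied to WT HSC H3.3 by its file name only. It holds no counts, no replicates and no knockout values, so HIRA KO against WT was not analysed here, depth is unknown, and no test between conditions could be run.

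H3.3 is the histone H3 variant that is placed into chromatin outside DNA replication, by HIRA at active genes and regulatory elements and by DAXX with ATRX at repeats and telomeres. A chromatin state map assigns each bin the combination of marks that best describes it, and in such maps short segments away from promoters are often candidate enhancers. The signal tracks behind these state numbers are unnamed in the sources used here, so the states are described below only by where they lay. Of 20085 starts of protein-coding transcripts, 51.2% lay in states 3 to 6 and 18.8% in states 9 to 11. Isolated segments are set beside 748 state 1 segments in 124 dense chains (5 or more segments with gaps up to 12500 bp), the remaining 4364 state 1 segments, and 64179 state 16 segments that had states 17 or 18 on both sides. All autosomal bins beyond the first 3 Mb of each chromosome give the background.

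The sequence of isolated segments could be read where one covered a promoter window of RefSeq (GRCm38.p6, the assembly of mm10), which runs from 250 bases before to 50 bases after a transcription start. A total of 58 windows lay wholly within an isolated segment, of which 26 belonged to 23 protein-coding genes. The windows below were chosen after their values were seen. They are a selection of genes with blood cell or transcription roles, to which the window with most CG was added, and not every window of such a gene. They are Il18, an inflammatory cytokine, Gpr84, a fatty acid receptor of myeloid cells, Bank1, a B cell scaffold protein, Slamf9, a receptor of the SLAM family, Tcf12, an E protein transcription factor, Mrtfa, a cofactor of SRF, and Derl3, a protein of endoplasmic reticulum degradation. The last line is the window of Hira, whose start lay in state 3 with the edge of an isolated segment 1.85 kb away, and is shown for contrast. CG dinucleotides are in capitals, and each sequence reads 5′ to 3′ on the strand of the gene.
Il18, chr9:50554450-50554749, plus strand: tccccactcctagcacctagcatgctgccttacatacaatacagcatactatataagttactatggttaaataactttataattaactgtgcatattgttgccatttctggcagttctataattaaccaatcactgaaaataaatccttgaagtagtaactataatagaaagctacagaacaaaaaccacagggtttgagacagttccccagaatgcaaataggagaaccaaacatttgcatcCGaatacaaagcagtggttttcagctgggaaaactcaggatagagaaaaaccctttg
Gpr84, chr15:103310389-103310688, minus strand: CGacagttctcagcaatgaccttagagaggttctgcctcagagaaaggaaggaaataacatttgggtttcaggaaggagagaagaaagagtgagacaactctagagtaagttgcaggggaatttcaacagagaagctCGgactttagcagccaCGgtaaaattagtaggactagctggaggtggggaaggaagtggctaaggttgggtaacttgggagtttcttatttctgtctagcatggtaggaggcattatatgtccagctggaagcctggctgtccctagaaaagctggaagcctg
Bank1, chr3:136326017-136326316, minus strand: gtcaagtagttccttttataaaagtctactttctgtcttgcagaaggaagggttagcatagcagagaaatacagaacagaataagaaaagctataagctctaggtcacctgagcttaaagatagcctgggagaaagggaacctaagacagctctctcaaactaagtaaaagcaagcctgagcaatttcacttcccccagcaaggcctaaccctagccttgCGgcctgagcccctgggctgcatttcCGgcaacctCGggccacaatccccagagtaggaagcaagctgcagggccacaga
Slamf9, chr1:172475110-172475409, plus strand: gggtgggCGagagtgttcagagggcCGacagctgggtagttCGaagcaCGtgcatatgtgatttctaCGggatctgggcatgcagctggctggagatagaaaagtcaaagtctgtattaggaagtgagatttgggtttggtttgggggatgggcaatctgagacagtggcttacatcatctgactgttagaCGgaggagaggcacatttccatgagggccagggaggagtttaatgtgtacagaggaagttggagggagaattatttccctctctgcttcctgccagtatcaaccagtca
Tcf12, chr9:71896047-71896346, minus strand: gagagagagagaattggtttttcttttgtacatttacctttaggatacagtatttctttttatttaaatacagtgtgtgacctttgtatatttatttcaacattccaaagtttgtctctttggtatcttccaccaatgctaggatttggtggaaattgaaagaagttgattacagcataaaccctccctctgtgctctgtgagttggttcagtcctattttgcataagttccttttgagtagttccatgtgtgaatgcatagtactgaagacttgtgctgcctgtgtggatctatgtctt
Mrtfa, chr15:81104998-81105297, minus strand: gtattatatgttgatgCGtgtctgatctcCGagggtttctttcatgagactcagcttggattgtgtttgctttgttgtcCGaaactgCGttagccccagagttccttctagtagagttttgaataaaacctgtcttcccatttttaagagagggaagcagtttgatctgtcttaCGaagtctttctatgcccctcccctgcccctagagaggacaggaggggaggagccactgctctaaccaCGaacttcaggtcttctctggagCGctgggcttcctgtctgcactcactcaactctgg
Derl3, chr10:75893148-75893447, plus strand: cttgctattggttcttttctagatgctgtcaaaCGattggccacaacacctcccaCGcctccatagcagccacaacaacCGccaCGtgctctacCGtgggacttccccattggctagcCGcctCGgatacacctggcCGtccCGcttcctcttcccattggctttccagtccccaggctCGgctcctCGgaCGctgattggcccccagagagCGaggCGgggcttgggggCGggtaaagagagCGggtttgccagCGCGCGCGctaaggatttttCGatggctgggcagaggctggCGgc
Hira, chr16:18876500-18876799, plus strand: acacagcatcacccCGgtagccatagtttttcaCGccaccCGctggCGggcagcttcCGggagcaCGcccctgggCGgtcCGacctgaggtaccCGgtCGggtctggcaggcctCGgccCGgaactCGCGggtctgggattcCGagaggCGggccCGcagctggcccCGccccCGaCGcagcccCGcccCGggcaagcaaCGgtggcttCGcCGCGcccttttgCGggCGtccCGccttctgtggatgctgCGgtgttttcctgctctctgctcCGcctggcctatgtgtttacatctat

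CpG varied among windows inside isolated segments. Over the 26 protein-coding windows wholly inside one, the median was 3 CG (quartiles 2 and 7.75), and the highest values were 22 at Derl3, 15 at Fut1, a fucosyltransferase gene, and 13 at Taf1a, a subunit of the RNA polymerase I factor SL1. The Il18 window held 1 CG, those of Gpr84 and Bank1 held 3 each, Slamf9 held 6 and Mrtfa held 7, while that of Tcf12 held 0. The Hira window held 31. GC content ran from 36.3% (Tcf12) to 62% (Derl3) in the printed windows inside isolated segments, against 69.0% at Hira. The segments that held these windows were between 600 bp (Il18) and 1800 bp (Derl3) long, and those of Gpr84 and Bank1 had state 16 on both sides.

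Over all 154 windows that shared at least 1 base with an isolated segment, the median was 4.5 CG per 300 bases (quartiles 3 and 7) and GC content was 49.3%. The 171 windows at other state 1 segments had a median of 5 CG, and 1101 windows with the start in state 16 had 4. The 11750 windows with the start in states 3 to 6 had a median of 22 CG and 62% GC, and all 31396 windows a median of 7. Promoters that fell into isolated segments thus had CpG counts like those of state 16 starts, far below those of starts in states 3 to 6. Windows at isolated segments were protein-coding in 51.9% of cases, against 87.5% for starts in states 3 to 6. With protein-coding windows alone the medians were 5 CG (n = 80) at isolated segments and 22 in states 3 to 6.

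**Figure D1:**
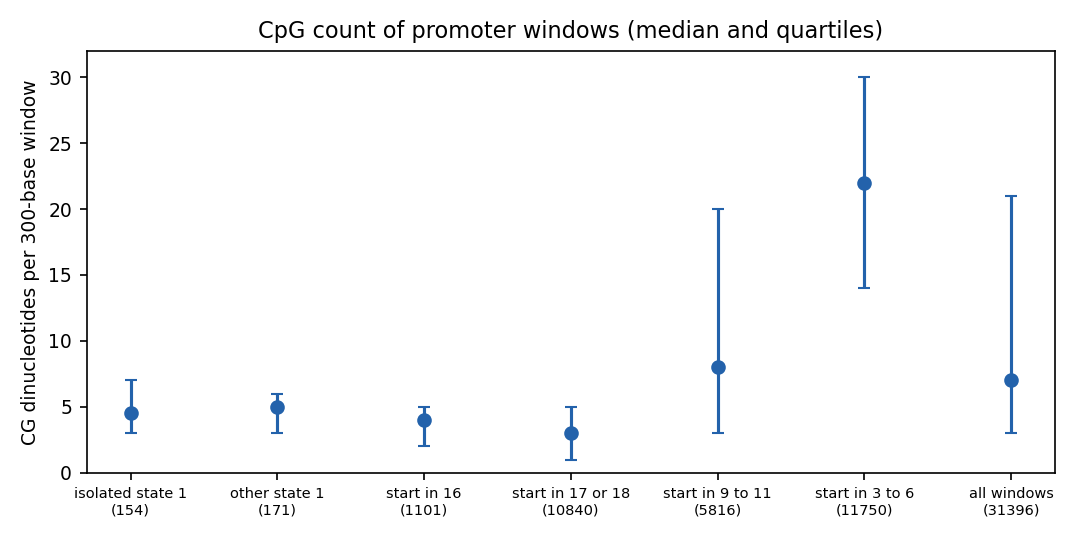
CG dinucleotides per promoter window of 300 bases (y axis) for windows that share a base with an isolated state 1 segment, with another state 1 segment, or whose start lies in the named states, with the number of windows in brackets. Points are medians and bars the quartiles; windows at isolated segments have a median of 4.5, against 22 for starts in states 3 to 6.

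Short words known from binding sites of blood transcription factors were counted in these windows on both strands. CAGGAA, a core bound by ETS factors, stood in 44.2% of windows at isolated segments (95% Wilson interval 36.6 to 52.0%), 43.9% at other state 1 segments, 41.6% at state 16 starts, 25.7% at starts in states 3 to 6 and 30.3% of all windows. The word AGATAA, which blood factors of the GATA family bind, stood in 13.6% (9.10 to 19.9%) at isolated segments, 19.9% at other state 1 segments and 11.2% of all. TGTGGT, a RUNX word, stood in 18.8% (13.4 to 25.7%), against 30.99% at other state 1 segments and 16.7% of all. CAGCTG, an E-box, stood in 20.8% (15.1 to 27.9%), against 20.5% and 16.3%.

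The AP-1 word TGACTCA, whose reverse complement is TGAGTCA, stood in 5 of 154 windows at isolated segments (3.25%, 1.39 to 7.37%), against 20 of 171 at other state 1 segments (11.7%) and 5.26% of all windows. CGCG stood in 12.3% of windows at isolated segments, 74.95% of those with the start in states 3 to 6 and 38.5% of all. Of these words, only CAGGAA and CGCG had an interval at isolated segments that left out the share of all windows. Those intervals cover counting error only, and the windows differ in base composition and in their share of noncoding genes. A word is a match of letters, not a measured binding site.

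A pair of miRNA hairpins touched an isolated segment, of 919 hairpins on the autosomes used for them (0.218%), and 0 touched another state 1 segment. Isolated segments covered 0.126% of autosomal bases. Counts this small do not show a preference of hairpins for either kind of state 1 segment, and none was tested. The hairpin of Mir155, a miRNA of immune and blood cells, lay with all 65 bases inside a segment of 1200 bp (chromosome 16, 84713401 to 84714600) between states 16 and 7, 99.6 kb from the next state 1 segment. That of Mir425 (chromosome 9) lay with 61 of its 85 bases in a segment of 600 bp between state 3 on both sides. The mature sequences from RefSeq are given 5′ to 3′ to identify the miRNAs, with the seed (bases 2 to 8) in capitals. The 4 seeds differ from each other.
mmu-miR-155-5p: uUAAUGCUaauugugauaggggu
mmu-miR-155-3p: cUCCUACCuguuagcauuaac
mmu-miR-425-5p: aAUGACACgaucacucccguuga
mmu-miR-425-3p: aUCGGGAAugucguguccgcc

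Length and spacing chose the members and are given as a description. Of the 5297 segments, 1536 (29%) were a single bin of 200 bp and 57.1% were 1 or 2 bins. The quartiles of length were 200, 400 and 800 bp for isolated segments, against 200, 600 and 1200 bp in dense chains and 200, 600 and 1000 bp for the remaining segments. The gap to the next state 1 segment had quartiles of 25.4, 50.4 and 114 kb and reached 4741 kb. Just inside the length limit lay 13 members of 2.80 kb, and just outside it 7 lone segments of exactly 3 kb, and the 36 lone segments at or over the limit reached 7.40 kb. Just inside the distance limit, 166 members had a gap of 12.6 to 13.4 kb, and 135 short segments just outside had one of 11.6 to 12.4 kb.

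Isolated segments most often lay beside state 16. State 16 formed 59.7% of their borders, state 2 formed 15.7% (9.12% when neighbours of 1 bin were skipped), state 3 9.75%, state 17 6.91% and state 5 4.51%. State 16 made up 11.6% of all segments of the map, state 2 2.04%, state 3 1.69% and state 17 14.1%. In dense chains the border shares were 55.5% for state 16, 18.6% for state 2 and 11.6% for state 3, and among the remaining segments 57.5%, 16.1% and 12.0%. Isolation from other state 1 segments thus went with nearly the same immediate neighbours as membership of a chain. Over the 19 autosomes the state 16 share at isolated segments averaged 59.7 ± 2.49% (SD), and autosomes are not replicates.

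States 3 to 6 were not equal partners. Of the borders of isolated segments, 1033 were with state 3 and 478 with state 5, against 33 with state 4 and 27 with state 6. These 4 states had similar numbers in the map, at 1.69, 1.96, 1.34 and 1.97% of all segments for states 3, 5, 4 and 6. The same split held in dense chains, with 174, 56, 0 and 2 borders, and among the remaining segments, with 1044, 422, 25 and 14.

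**Figure D2:**
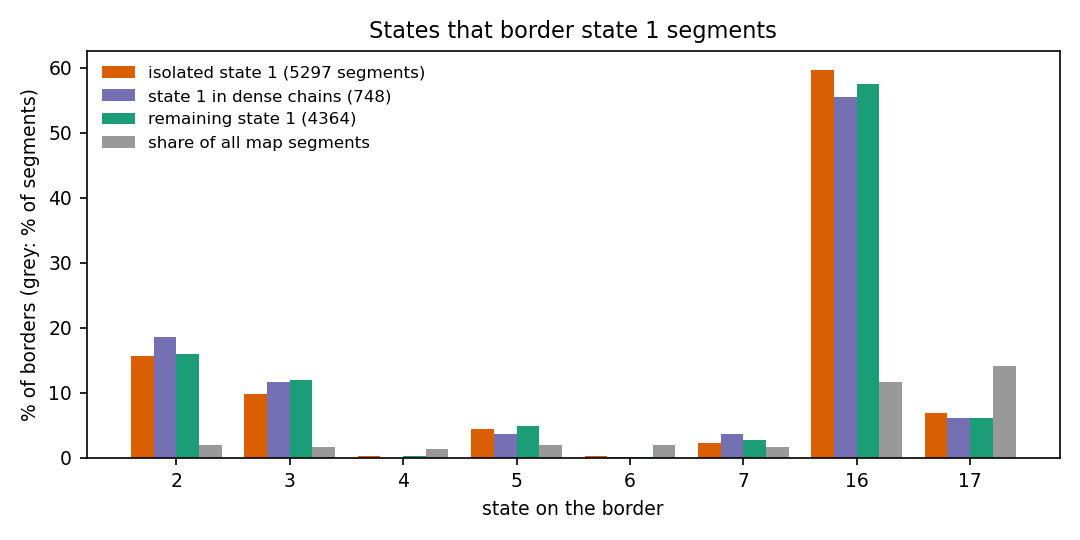
Share of borders (y axis, %) that state 1 segments of each class have with the states on the x axis, with the share of each state among all segments of the map in grey. State 16 holds 59.7% of the borders of isolated segments, and states 4 and 6 hold 0.311% and 0.255%.

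By their neighbours the members fell into 5 groups. The most common had state 16 on both sides, with 1885 segments (35.6%). A further 1534 (29%) touched one of states 3 to 6, and 1236 (23.3%) touched state 2 without touching those. Another 463 lay between other pairs of states 16 and 17, and 179 touched state 7 or another state. A single bin made up 47.1% of the segments that touched states 3 to 6, against 17.2% of those with state 16 on both sides and 30.3% of those that touched state 2. The group that touched state 7 or another state lay in a protein-coding gene record in 84.4% of cases, against 56.0 to 60.4% in the other 4 groups.

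The surroundings changed quickly with distance. State 16 filled 59.7% of the first bin beside an isolated segment, 23.97% of the bins 1 kb away and 7.83% at 10 kb. States 3 to 6 filled 14.8% of the first bin, 15.9% at 1 kb, 3.52% at 5 kb and 2.47% at 10 kb. State 17 took over, at 48.0% of bins 2 kb away and 43.8% at 10 kb, and state 18 had 23.1% at 10 kb. At that distance from dense chains state 16 still held 21.7% of bins, states 3 to 6 8.14% and state 18 4.97%. The remaining segments lay between, with 13.5%, 5.45% and 12.6%.

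**Figure D3:**
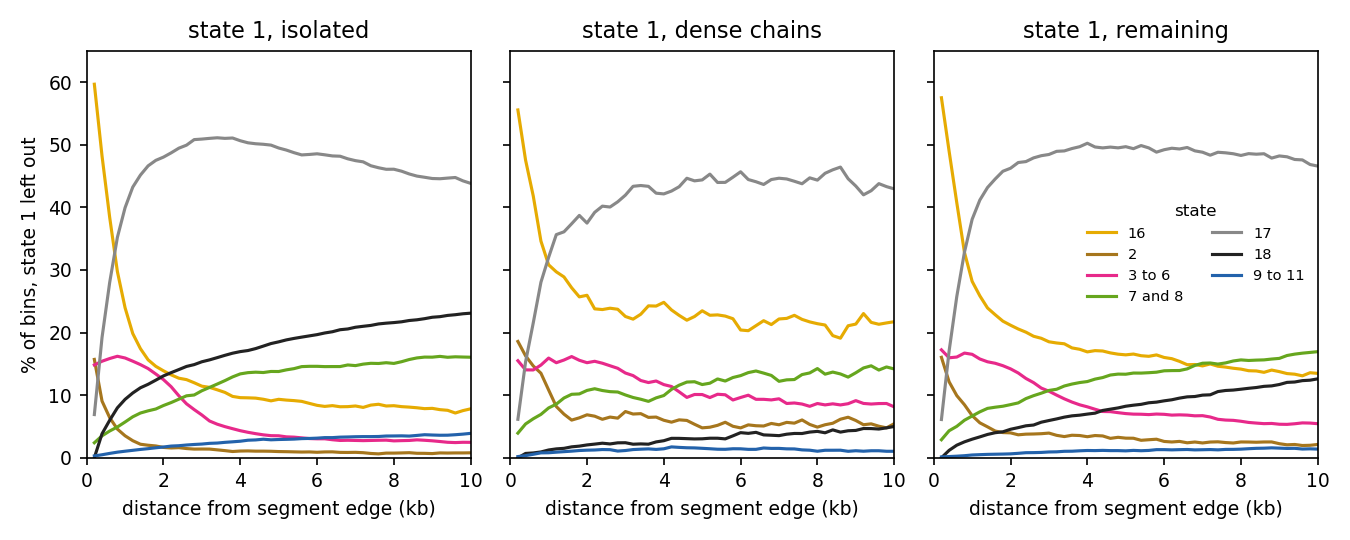
Share of bins in each state or group of states (y axis, %, state 1 left out) by distance from the segment edge (x axis, kb) for isolated segments, segments in dense chains and remaining state 1 segments. State 16 falls to 7.83% of bins at 10 kb from isolated segments, against 21.7% from dense chains.

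Within 50 kb on either side the same contrast held. State 18 filled 27.01% of bins around isolated segments, 12.0% around dense chains, 18.8% around the remaining segments and 51.5% of all autosomal bases outside state 1. State 17 filled 38.3, 40.3 and 41.4% in the 3 classes, against 16.3% of all bases. States 9 to 11 filled 4.42% around isolated segments, 2.93% around dense chains and 2.73% around the remaining segments, all below the 14.9% of all bases. Since the rule removes segments with close state 1 neighbours, part of the difference in surroundings between isolated and chained segments comes with the choice of members, and it was not tested.

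Isolated segments lay in gene-rich parts, but farther from promoter states than other state 1 segments. A protein-coding gene record held 3110 of them (58.7%, 57.4 to 60.0%), against 71.3% of dense chain segments, 64.7% of the remaining segments, 49.7% of state 16 segments and 41.0% of all bins. The share averaged 58.5 ± 4.49% (SD, 19 autosomes) for isolated segments and 41.1 ± 4.04% for all bins, and it was higher for isolated segments on 19 of 19 autosomes. Against the remaining segments it was lower on 17 of 19.

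States 3 to 6 lay within 10 kb of 49.5% of isolated segments (48.2 to 50.8%), against 66.04% in dense chains, 66.4% of the remaining segments, 19.8% of state 16 segments and 12.1% of all bins. By autosome the share was 49.3 ± 4.78% for isolated segments and 66.5 ± 5.54% for the remaining segments (SD, 19 autosomes), and it was lower for isolated segments on 19 of 19. The median distance to states 3 to 6 was 10.6 kb for isolated segments, 4.40 kb in dense chains, 3.80 kb for the remaining segments and 106 kb for all bins.

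For gene ends, both the shares and the medians ordered the 3 classes of state 1 differently than for states 3 to 6. An end of a protein-coding record lay within 1 kb of 681 isolated segments (12.9%, 12.0 to 13.8%), against 9.36% in dense chains, 11.5% of the remaining segments, 3.55% of state 16 segments and 3.38% of all bins. The interval of the remaining segments (10.6 to 12.48%) overlapped that of the isolated ones. The median distance to a gene end was 10.7 kb for isolated segments, 13.2 kb in dense chains, 9.52 kb for the remaining segments, 30.6 kb for state 16 segments and 48.0 kb for all bins. The groups by neighbour differed widely: the share was 31.03% for segments that touched states 3 to 6, 4.46% for those with state 16 on both sides and 5.99% for those that touched state 2. The median distance to a gene end was 1.45 kb in the first of these groups, against 20.7 and 17.3 kb. Segments of 200 bp were nearer, with a median of 3.61 kb, than those of 1200 to 2800 bp, with 15.0 kb.

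Transcription starts with strand were known for the gene nearest to 4175 isolated segments. Of these, 11.9% had a start within 1 kb, a higher share than in dense chains (8.29%) or among the remaining segments (9.87%). Within 10 kb isolated segments instead had the lowest share, at 43.7%, against 48.2% in dense chains and 49.1% of the remaining segments. No start lay within 50 kb of 24.05% of isolated segments. The nearest start lay in states 3 to 6 for 73.6% of isolated segments, 82.6% of dense chain segments, 78.0% of the remaining segments, 57.1% of state 16 segments and 43.9% of bins. It lay in states 9 to 11 for 7.43%, 1.88%, 3.03%, 17.9% and 28.8%, in the same order.

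Isolated segments that touched states 3 to 6 formed shoulders on both sides of starts, with a gap at the start itself. Of 1217 with a known start, 956 (78.6%) lay within 5 kb of it, 432 upstream and 524 downstream (54.8% downstream, 51.6 to 57.9%). The upstream midpoints had a median distance of 1.06 kb (quartiles 0.739 and 1.39 kb) and the downstream ones of 1.65 kb (1.26 and 2.09 kb). Only 30 upstream and 14 downstream midpoints came within 500 bp of the start. State 3 was the touched state in 67.4% of the upstream and 67.2% of the downstream segments, and state 5 in 29.6 and 29.8%. The start itself lay in states 3 to 6 in 93.8% of upstream and 93.5% of downstream cases. A state 1 segment cannot cover such a start, so the gap there comes in part with the choice of this group. Dense chain and remaining segments that touched states 3 to 6 were not measured in this way.

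Where that start lay in states 3 to 6, it lay in state 3 in 30.4%, state 4 in 12.3%, state 5 in 33.5% and state 6 in 23.8% of cases. Over all starts in states 3 to 6 the shares were 23.99, 19.9, 24.4 and 31.7%. The starts beside these segments were thus more often in states 3 and 5 than starts at large. They were less often in states 4 and 6, which seldom bordered state 1. These starts were picked beside segments that mostly touched state 3 or 5, so part of the difference comes with the choice. A start beside 2 segments was counted for each. Isolated segments that did not touch states 3 to 6 had no such sharp peaks, but they were more frequent downstream. Each bin of 500 bp within 6 kb of the start held 11 to 24 of them upstream and 17 to 45 downstream. Those touching state 2 lay downstream in 140 of 215 cases within 5 kb (65.1%, 58.5 to 71.2%). The downstream share was 59.3% with state 16 on both sides and 68.6% between other pairs of states 16 and 17. It was 83.3% of 24 segments that touched state 7 or another state. Taken over all 1494 isolated segments within 5 kb, those touching states 3 to 6 included, the downstream share was 58.0% (55.4 to 60.4%). Remaining state 1 segments, also taken whole, lay downstream in 55.5% (52.7 to 58.3%), an interval that overlapped that of the isolated ones. Dense chain segments lay downstream in 52.8% and state 16 segments in 47.4% of 5028 cases.

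**Figure D4:**
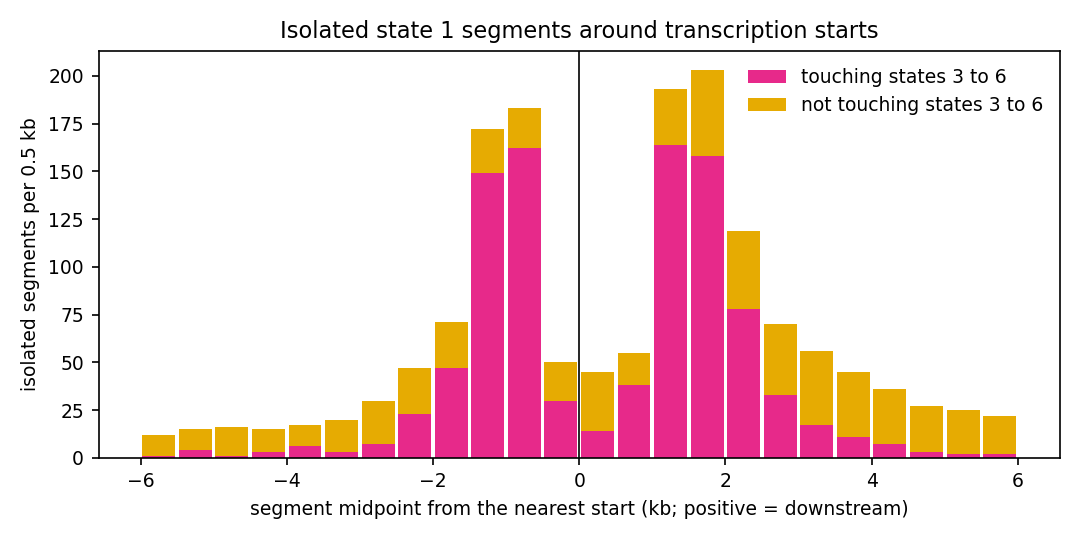
Number of isolated segments per 0.5 kb (y axis) by the distance of the segment midpoint from the nearest transcription start (x axis, kb, positive downstream), split by whether the segment touches states 3 to 6. The touching segments peak at 162 between 0.5 and 1 kb upstream and at 164 between 1 and 1.5 kb downstream, and drop to 30 and 14 in the bins next to the start.

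Some segments that touched states 3 to 6 lay away from the protein-coding starts used here, which leave out noncoding genes and part of the coding ones. The nearest of these starts was over 5 kb away for 261 of 1217 (21.4%), and 144 of these segments lay outside protein-coding gene records.

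Within gene records isolated segments were most frequent near the 5′ end. Of 2384 segments inside a single record with known strand, each divided into 5 equal parts, 38.1% lay in the first part, then 20.4, 15.4, 13.1 and 12.96% in the following ones. Segments in dense chains had 34.6, 28.4, 21.5, 10.6 and 4.88%, and the remaining segments 38.7, 22.7, 17.6, 12.4 and 8.61%. Without the segments that touched states 3 to 6 the isolated ones were more even, at 25.8, 23.5, 18.5, 16.5 and 15.6% (n = 1682).

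Density varied along the genome. The autosomes held 2.19 ± 0.384 isolated segments per Mb (SD, 19 autosomes), from 1.71 on chromosome 14 to 3.15 on chromosome 11. Their share of all state 1 segments was 51.4 ± 3.56%, lowest on chromosome 11 (46.2%) and highest on chromosome 18 (59.9%). Density was higher on autosomes with more genes per Mb (Pearson r = 0.64, Spearman rho = 0.55, n = 19), a description over chromosomes of 1 map.

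Isolated segments were spread thinly over many genes. Of 20560 autosomal protein-coding genes, 4486 (21.8%) had an isolated segment in the record or within 10 kb, and 2622 (12.8%) had one in the record. By comparison, 0.832% had a dense chain segment within that reach, 9.49% a remaining segment and 29.1% any state 1 segment. Of the genes with an isolated segment in the record, 2236 had 1, 287 had 2 and 99 had more. The share with a segment in reach was 32.7% for 8683 genes with a start in states 3 to 6, 8.25% for 3151 with a start in states 9 to 11 and 10.6% for 4623 with neither. It was also higher for longer genes, at 38.6% for 945 records over 200 kb, against 8.67% for 4512 records up to 5 kb. Per Mb of record the order was reversed, at 1.47 segments in records over 200 kb and 5.81 in those up to 5 kb.

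Babam2, which encodes a member of the BRCA1-A and BRISC complexes, held 6 isolated segments in 387 kb (chromosome 5, 31697978 to 32084950), more than any other gene. A further 11 genes held 5 each, of which the 9 with most segments per length of record are named here. Atp10a, a phospholipid flippase, had them in 174 kb, Nsmce2, a SUMO ligase of the SMC5/6 complex, in 227 kb, Ssh2, a cofilin phosphatase, in 244 kb, and Cmss1 in 305 kb. Psd3, an exchange factor for ARF6, had them in 523 kb. These 6 genes held 0 other state 1 segments. Rere, a nuclear receptor corepressor, also held 5 dense chain and 4 remaining segments, Prkce, a protein kinase C, 9 remaining ones, Nfia, a transcription factor, 4, and Atxn1, a transcriptional corepressor, 3.

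The most remote segment lay 0.151 kb from Dmac1, a complex I assembly factor (chromosome 4, 75277001 to 75277200). It was 1 bin long, between states 16 and 2, 4741 kb from the next state 1 segment and 1.09 kb from the start of Dmac1. Those next in order were in Pcm1, a centriolar satellite protein (gap 4465 kb), Dsel, a dermatan sulfate epimerase (4278 kb), Pcdh7, a protocadherin (3680 kb), and Pex2, a peroxisome protein (3350 kb). The following 5 lay in Adgra3, Trps1 and Btbd3, 6.71 kb from Nipa2 and 779 kb from Nudt12, with gaps of 2454 to 2691 kb. Of these 10 segments, those at Pex2, Nipa2, Trps1 and Btbd3 touched state 3 or 5, and those at Dmac1 and Dsel lay 0.200 kb from states 3 to 6.

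Of the longest segments, each of 2.80 kb, the one in Nek7, a kinase needed for the NLRP3 inflammasome, lay 100 kb from a start. A pair lay in Fnbp1, an F-BAR protein, 33.5 and 6.90 kb from its start and 23.8 kb from each other. One at Fam241a lay 1.32 kb from the start and touched state 3, and one lay in Camkk2, a calcium-dependent kinase, between states 7 and 16. The first single-bin segments on chromosome 1 lay in Lypla1, beside state 3, in Ube2w and Paqr8, with state 16 on both sides, and 32.6 and 9.60 kb from Pcmtd1 and Cnnm4, between states 16 and 2.

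HSC regulators had isolated segments in reach in 12 of 30 genes (40.0%, 24.6 to 57.7%), against 21.8% of all genes. The interval held the 32.7% of genes with a start in states 3 to 6. Remaining state 1 segments reached 14 of the 30 (46.7%), against 9.49%, and 21 (70%) had any state 1 segment, against 29.1%. The records of the list had a median length of 30.02 kb, against 17.6 kb for all genes. With only segments that did not touch states 3 to 6, the count was 10 of 30 (33.3%), against 13.1% of all genes.

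Lyl1, a bHLH factor of HSCs (chromosome 8), had a segment of 1600 bp between states 16 and 3, 1.06 kb upstream of its start. Erg, an ETS factor, had 1 bin deep in its record (chromosome 16, 95414001 to 95414200) with state 16 on both sides, beside 4 other state 1 segments. Meis1, a homeodomain partner of Hox proteins, held 2 segments of 600 bp, 12.47 and 90.5 kb into the record, each between states 2 and 16. Mecom, a zinc finger factor of long-term HSCs, had one of 800 bp inside the record, 406 kb from the next state 1 segment, and one of 1000 bp 2.94 kb upstream between states 16 and 5. The position of these segments relative to starts thus ranged from the promoter shoulder to deep inside the record.

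Other HSC regulators in the list, named after their values were seen, were Hlf, Hoxa9, Gfi1, Etv6, Zfpm1, Ikzf2, Prdm16 and Msi2. Msi2, an RNA-binding protein of HSC self-renewal, had 5 isolated segments in reach beside 12 other state 1 segments. Hoxa9 had 1 segment of 400 bp with state 5 on both sides, 3.50 kb from the record and 0.628 kb from the nearest start, that of Hoxa7. Gfi1, a repressor, had one of 800 bp between states 16 and 2 inside the record.

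Of the genes of HSC surface and signalling, 7 of 25 (28%, 14.3 to 47.6%) had an isolated segment in reach, with the 21.8% of all genes inside the interval. Flt3, a cytokine receptor of early progenitors, had 2, of 600 bp with state 2 on both sides and of 1000 bp with state 16 on both sides. Cd9, a tetraspanin, had one of 1600 bp with state 16 on both sides, 12.8 kb into the record and 57.8 kb from other state 1. Angpt1, the ligand of the receptor Tie2, had 1 bin between states 7 and 16. Cd81, another tetraspanin, had 1 bin beyond its 3′ end, 0.568 kb from the start of Tssc4.

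For the other blood lineages the intervals held the share of all genes. The counts were 3 of 23 erythroid genes (13.04%), 5 of 19 megakaryocyte genes (26.3%), 5 of 25 neutrophil and monocyte genes (20.0%), 3 of 15 mast cell, eosinophil and basophil genes (20.0%) and 5 of 23 genes of T and NK cells (21.7%). B cell genes stood at 7 of 19 (36.8%, 19.1 to 59.0%), also with an interval that held 21.8%. In the record alone the B cell count was 2 of 19 (10.5%), against 12.8% of all genes. Within 100 kb, all 19 B cell genes (100%) had an isolated segment, as had 27 of 30 HSC regulators (90.0%), 22 of 25 genes of HSC surface and signalling (88%), 21 of 26 housekeeping genes (80.8%), 12 of 23 T cell and NK cell genes (52.2%) and 55.5% of all genes. This wider reach also takes in neighbouring genes.

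Among the erythroid genes, Hbb-bt, an adult beta globin, had a segment of 1000 bp with state 16 on both sides, 4.22 kb downstream of its start. Whether near-identical globin copies affect its state was not tested. Car2, a carbonic anhydrase of red cells, had 1 bin between states 16 and 7, and Cpox, a heme synthesis enzyme, 1 bin 5.81 kb from the record. In the megakaryocyte list, P2ry12, the platelet ADP receptor, had 3 isolated segments in reach of 800, 800 and 600 bp, the last at its start, 0.285 kb from it by midpoint. Those of 800 bp lay nearer to the start of P2ry13 (4.48 and 23.7 kb) than to that of P2ry12. Itgb3, an integrin subunit of platelets, Selp, P-selectin, and Clec1b, a platelet lectin receptor, had 1 each of 600, 600 and 1000 bp. The one at Clec1b lay nearer to the start of Clec9a (2.26 kb) than to that of Clec1b. Of the 19 megakaryocyte genes, 0 had an isolated segment that touched states 3 to 6 (0 to 16.8%), with the 10.0% of all genes inside the interval. The 5 with an isolated segment had no other kind of state 1 segment in reach. The same was true of 3901 of the 4486 genes with an isolated segment.

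Of the myeloid genes, Irf8, a factor of monocyte and dendritic cell fate, had 2 segments of 400 bp, 15.6 and 29.2 kb downstream of the start. Cebpe, a granulocyte factor, had one of 1200 bp between states 16 and 3, 0.627 kb from the record. Ccr2, a chemokine receptor of monocytes, had 1 bin 1.72 kb from its start, and Mmp9, a gelatinase, one of 400 bp between states 10 and 17. Ms4a2, the beta chain of the IgE receptor, Hdc, which makes histamine, and Ccr3, the eotaxin receptor, had segments of 600, 400 and 1200 bp.

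Of the lymphoid genes, Rag2, a recombinase gene, had 1 bin with state 16 on both sides 0.212 kb upstream of its start (chromosome 2, 101624401 to 101624600), 130 kb from other state 1. Cd79a and Cd79b, the signalling chains of the B cell receptor, had segments of 400 and 800 bp at 4.54 and 3.74 kb from their records, and Ms4a1, CD20, one of 400 bp at 5.08 kb. The segment at Cd79a lay nearer to the start of Arhgef1 (2.055 kb) than to that of Cd79a. Cd3d and Cd3g, subunits of the T cell receptor complex, lie side by side and share a segment of 400 bp between states 5 and 16. Cd3g also had another of 600 bp in reach, nearer to the start of Ube4a (1 kb) than to its own. Lck, a T cell kinase, had one of 1600 bp 1.96 kb upstream of its start, and Gata3, a T cell regulator, 1 bin between states 7 and 3. These are positions in a map of sorted HSCs and carry no expression values.

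Interferon response genes had an isolated segment in reach in 9 of 24 cases (37.5%, 21.2 to 57.3%), and the 21.8% of all genes lay just inside that interval. Of the 24, 5 (20.8%) had one that touched states 3 to 6, against 10.0% of all genes, and 4 (16.7%) had one that did not, against 13.1%. Isg15, a ubiquitin-like antiviral protein, had 1 bin between states 5 and 16, 0.624 kb from its record. This bin lay nearer to the start of Agrn (1.11 kb) than to that of Isg15. Ifit2 and Ifit3, antiviral RNA-binding proteins, share a segment of 600 bp with state 2 on both sides, 0.429 kb upstream of the first listed start of Ifit3 by midpoint. Oasl2 had one of 1000 bp, nearer to the start of Oasl1 (0.840 kb) than to its own. All mice of the series had received poly(I:C), and no untreated mice were among the libraries.

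Housekeeping genes stood at 6 of 26 (23.1%) and genes of H3.3 and its chaperones at 4 of 12 (33.3%, 13.8 to 60.9%). Of the 12 chaperone genes, all 4 counted (33.3%) had a segment that touched states 3 to 6, against 10.0% of all genes. Hira had 1 bin between states 5 and 16 (chromosome 16, 18878601 to 18878800), 1.95 kb downstream of its start by midpoint and 466 kb from the next state 1 segment. Asf1b, a histone chaperone, had 600 bp between the same states, 1.01 kb downstream of its start. H3f3b, which encodes H3.3, had 1000 bp 5.56 kb from its record, nearer to the start of Unk. Dek, a chromatin protein that binds H3.3, had 2. Of the housekeeping genes, Polr2a, the large subunit of RNA polymerase II, had 800 bp with state 16 on both sides, and the proteasome genes Psmb2 and Psmb4 1000 and 200 bp beside state 3.

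Developmental, neuronal and liver genes seldom had an isolated segment in reach. Of 35 developmental regulators, 0 had one in reach (0 to 9.89%), and 0 had any other state 1 segment. Their records were short, with a median of 6.33 kb against 17.6 kb for all genes. The interval of their share held the 8.25% of genes with a start in states 9 to 11. The count was 1 of 23 for neuronal genes (4.35%, 0.772 to 20.99%) and 1 of 19 for liver genes (5.26%, 0.935 to 24.6%), where the interval held 21.8%. Within 100 kb the shares were 17.1% for developmental regulators, 47.8% for neuronal genes and 57.9% for liver genes, against 55.5% of all genes. The neuronal gene was Map2, a microtubule protein, with 1200 bp deep in its record with state 2 on both sides, 422 kb from other state 1. The liver gene was Apoa2, an apolipoprotein, whose segment of 800 bp lay 1.15 kb from the start of Fcer1g, the gamma chain of Fc receptors.

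Genes of endothelium and stroma, cells that a sort for HSCs should leave out, stood at 5 of 20 (25.0%, 11.2 to 46.9%), close to the 21.8% of all genes. Pecam1, which HSCs also carry, had 2 segments of 1000 and 600 bp with state 16 on both sides. Kdr, a VEGF receptor, had 2, one of them 1.05 kb upstream of its start beside state 5. Adipoq had 1 bin and Runx2, a bone regulator that blood cells also express, had 3. The map has no expression values, so other cells in the sort could not be checked by their levels, and their part was not tested.

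**Figure D5:**
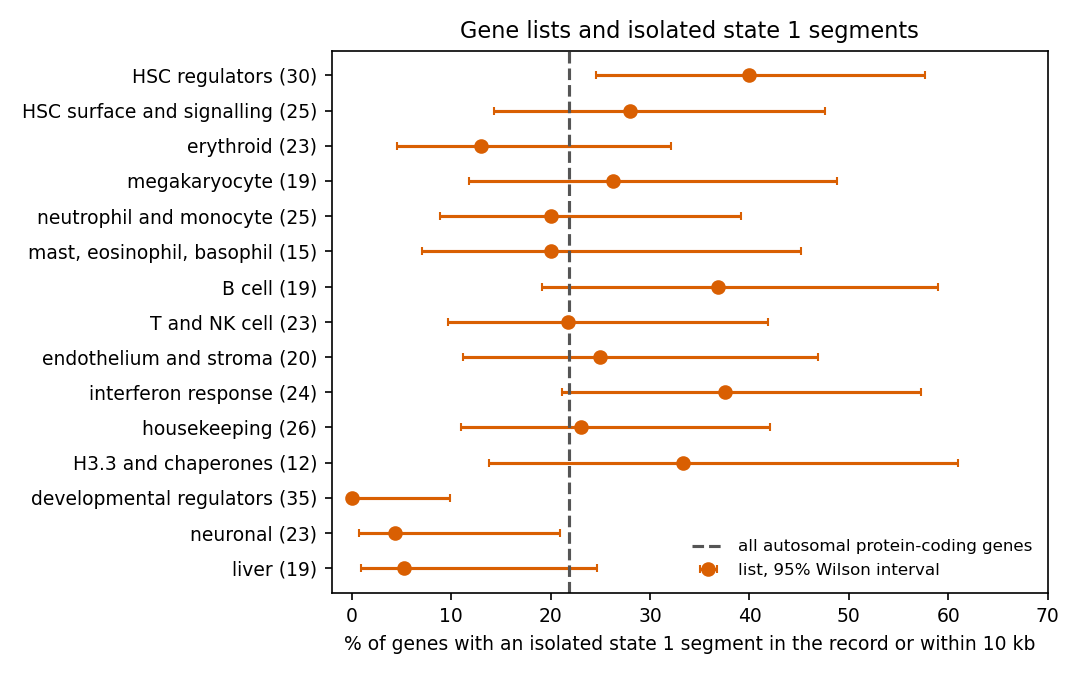
Share of genes of each list (x axis, %) with an isolated segment in the record or within 10 kb, with 95% Wilson intervals and the number of genes measured in brackets; the dashed line is the 21.8% of all autosomal protein-coding genes. HSC regulators stand at 40.0% and developmental regulators at 0%.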

How the data were processed

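Sorted HSCs were lysed, their chromatin was cut with micrococcal nuclease, and H3.3 was immunoprecipitated, per the labels' protocols. Per the submitters' processing notes, the tools included HOMER, MACS2, deepTools and Bowtie2 (no versions) with build mm10. The deposited files hold 1 map of 18 states in bins of 200 bp, as a state number per segment (not a count or signal), in a dense and an expanded form that gave the same state in 100% of bins. ChromHMM is named in the track and file names only. Which tracks entered it, and its version, is not given in the sources used here.

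The members, lists and comparisons were chosen with earlier results of these data known. Distances run edge to edge unless a midpoint is named. The exceptions are distances of a segment from the start of its own list gene, which run from the segment midpoint. Genes and promoter windows came from RefSeq GRCm38.p6, matched by gene ID. Gene records carry no strand or exons, and starts with strand, known for 80.0% of autosomal protein-coding genes, were used only where the gene of the nearest end had one. Genes within the first 3 Mb were left out. Intervals of shares are 95% Wilson intervals and cover counting error only, and no test was run on 1 map. Named genes were the first 10 by isolated segments in the record (ties by segments per record length), the first 4 of each list, the 10 most remote, the 5 longest and 5 shortest segments. A gene taken by this rule is not reported here. The rule for sequences, promoter windows of list genes wholly inside a segment, took 0 genes, so those printed were chosen afterwards. Code was tested on simulated segments. Tools were Python 3.11.15, numpy 2.4.6, pandas 2.3.3, scipy 1.17.1 and matplotlib 3.10.9.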

Additional observations from a re-analysis of the deposited data

How the results depend on the processing

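Of 177 values under alternatives for 26 results, 128 stayed inside the interval of the main value and 49 lay outside it. Each result is a single value without a direction, so a reversal could not be scored. The interval was a Wilson interval for shares. It was a wide range for the number of segments (3531 to 7945.5), the SD over autosomes for density and the quartiles for the CG count. The values inside include those of the expanded form, which holds the same states as the dense one and could not differ. With an isolation distance of 5 kb, 60.1% of isolated segments lay in a gene record and the median distance to states 3 to 6 was 8.60 kb. With segments of 1 bin removed first, 9.81% lay within 1 kb of a gene end, the median distances were 12.53 kb to a gene end and 12.8 kb to states 3 to 6, and 61.8% and 12.0% of borders were with state 16 and states 3 to 6. With all annotated genes, 67.8% lay in a record and 19.9% within 1 kb of an end, with a median of 4.59 kb. Within 2.5 and 5 kb of an end lay 29.2 and 38.3%, and within 1 kb of a start 11.9%. Skipping neighbours of 1 bin gave 48.1% state 16 and 9.12% state 2 borders. Within 100 kb, 90.0% of HSC regulators and 17.1% of developmental regulators had an isolated segment. Without segments that touch states 3 to 6, an alternative chosen after seeing the data, 5.45% lay within 1 kb of an end and the median was 18.4 kb. Leaving out 1 autosome at a time gave 2.10 to 2.17 segments per Mb. The cause of these shifts was not tested.

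No paired analysis was possible because the map is 1 segmentation with no replicates. Depth is unknown, so whether a lone bin would recur in another map could not be measured. Gene ends mix starts with 3′ ends, and starts and miRNA hairpins were not used for chromosome 18.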
